A study of Homo sapiens with 47 samples.

Results

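Clone C6 is a line of NUP58-mutant HAP1 cells, and its transcriptome was compared with that of wild-type HAP1 cells (WT). The comparison rests on 8 of the 47 libraries of the series: the 4 whose titles name HAP1 C6 and the 4 whose titles name HAP1 WT. HAP1 is a near-haploid human line derived from a chronic myeloid leukemia. C6 was raised from a single cell after Cas9 editing of NUP58, carries a small deletion in exon 4 that brings in a premature stop codon, and was sampled at its first passage. It was picked for being among the smallest viable colonies, and its 4 libraries are repeats of 1 clone with 1 allele. WT is labelled as wild-type for genotype. All lines were collected as total RNA below full confluence. A further control line, EV (4 libraries), received Cas9 with no guide RNA, and the NUP58-mutant clones C1 to C5 (20 libraries) were picked alongside C6. Each library is labelled as a replicate of its line, and nothing in the labels says how the cultures were kept apart, so p-values measure the spread between these libraries and not between independent NUP58 mutants.

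The nuclear pore complex is the channel through which proteins and RNA pass between nucleus and cytoplasm. NUP58 is a phenylalanine-glycine nucleoporin of its central channel and acts together with NUP62 and NUP54. Large cargoes cross the pore bound to karyopherins such as importin beta (KPNB1), importin alpha 3 (KPNA4) and the transportins (TNPO1 and TNPO2). The exon edited in C6 is shown here because it defines the clone. It is exon 4 of 16 in the transcript ENST00000381736.8 and lies on the plus strand of GRCh38 (hg38) at chr13:25312883-25313032, inside the coding sequence. It is 150 bases long, a multiple of 3, and in its own reading frame it holds no stop codon. Capitals mark the stop triplets of both other reading frames. A deletion that shifts the frame would bring either frame into use, not both, and only past the deletion. Which of the marked stops applies to C6 is not shown here.
NUP58 exon 4: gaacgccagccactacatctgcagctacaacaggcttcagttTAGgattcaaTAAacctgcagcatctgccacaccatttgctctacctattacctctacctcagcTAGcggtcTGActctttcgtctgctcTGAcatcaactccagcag

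Expression was read as FPKM, the number of fragments scaled to transcript length and to the mapped fragments of the library. Differences are on a log2(FPKM + 1) scale, on which low genes appear to move less than they do. A gene passed at an adjusted p under 0.05 in limma's moderated test, with p-values adjusted over all genes tested (Benjamini-Hochberg). Of 57507 genes in the table, 13371 averaged 1 FPKM or more in these 8 libraries and were tested. Libraries of C6 correlated with each other across genes with r of 0.956 to 0.985, and those of WT with r of 0.941 to 0.982. The depth of a library relative to WT replicate 1, estimated from genes of so low an FPKM that most hold 1 fragment, was 0.763 to 0.9 in C6 and 0.791 to 1.0 in WT, so depth differed little between the lines. Fewer cells of a kind and less RNA per cell cannot be told apart in such bulk samples. Of the 13 blood cell markers, 7 were at 0 in all 8 libraries and none reached a mean FPKM of 1, and their sum was 0.193 to 0.733 FPKM in C6 and 0.431 to 0.766 FPKM in WT. The colorectal epithelium markers summed to 3.75 to 6.41 FPKM in C6 and 3.02 to 5.11 FPKM in WT, with no member tested off chromosomes 6 and 13, and the fibroblast and endothelial markers to 4.29 to 14.6 FPKM and 3.76 to 10.4 FPKM, with none of them passing.

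The targeted gene was lower in C6. NUP58 (chromosome 13, 25301524 to 25365390 in GENCODE on GRCh38, as for all positions here) had an FPKM of 15.8, 18.5, 14.3 and 13 in the C6 libraries and of 34.3, 34.7, 50.4 and 45.8 in the WT libraries. All C6 libraries lay below all WT libraries. The level in C6 was 37.3% of that in WT (15.4 ± 2.37 against 41.3 ± 8.07 FPKM, SD, n = 4 each), a drop of 1.36 ± 0.16 (SE) on the log2 scale with an adjusted p of 0.000697 in limma. The 10 tested genes nearest to NUP58 were also lower, with a median difference of -0.47. In EV the level was 35.3 to 45 FPKM, within the range of WT, and in C1 to C5 it was 7.98 to 28 FPKM. C6 did not differ detectably from the mean of those clones (difference 0.15 ± 0.13, adjusted p = 0.51).

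Over all chromosomes, 840 genes rose in C6 (6.28% of those tested) and 721 fell (5.39%). Chromosomes 6 and 13 stood apart. On chromosome 13, 41.6% of the 238 genes tested fell and 0.84% rose, with a median difference of -0.52, and on chromosome 6, 25.6% of 656 fell. On the other chromosomes the share of genes that fell was 1.53% to 5.97% and the share that rose 1.3% to 13.7%, the highest being those of chromosome 21 (13.7%), chromosome 4 (13.4%) and chromosome 5 (11.5%). The counts from here on are of the 12376 genes tested that lie elsewhere than on chromosomes 6 and 13. A further 101 genes tested had no position in the annotation and are left out of them.

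**Figure D1:**
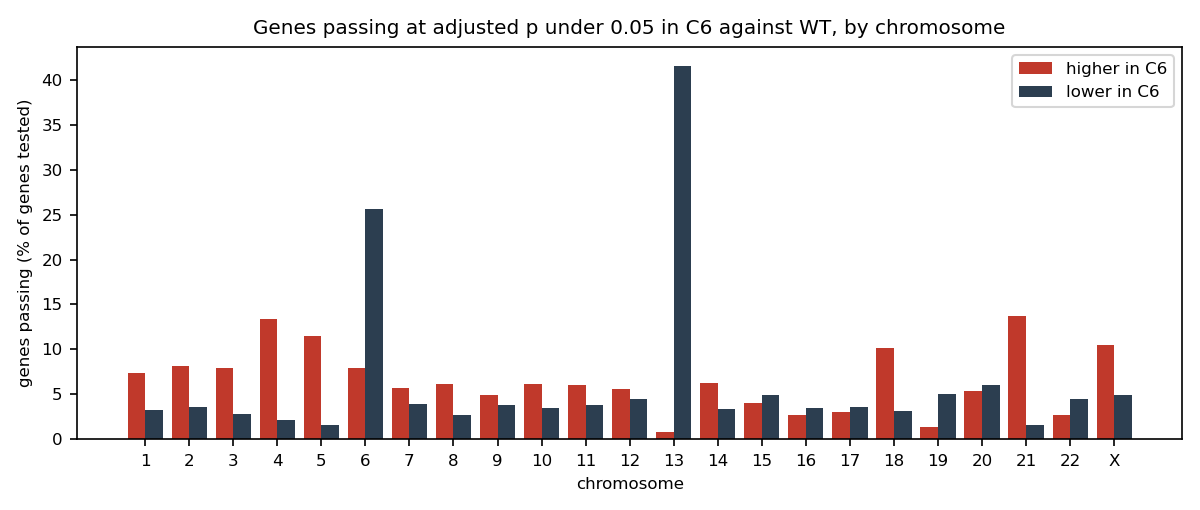
Share of the genes tested on each chromosome that rose (red bars) or fell (dark bars) in the 4 C6 libraries against the 4 WT libraries, in percent, at an adjusted p under 0.05. Chromosome 13 (41.6% lower) and chromosome 6 (25.6% lower) stand above every other chromosome, none of which has over 5.97% of its genes lower.

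Off chromosomes 6 and 13, 780 genes rose (6.3% of those tested) and 451 fell (3.64%). Among these 1231 genes, 1179 had 4 C6 libraries that did not overlap the 4 WT libraries, where the share without overlap over all genes tested was 17.3%. The genes that rose had a median WT level of 6.95 FPKM and a median difference of 0.80. Those that fell started from 18.2 FPKM and had a median difference of -0.72. The median WT level of all genes tested was 13.3 FPKM, and their median difference was 0.03. Over these 12376 genes, 6681 differences were positive and 5695 negative. Those counts, with the shares of 6.3% and 3.64%, are the background for the list counts below. With an unadjusted p under 0.01 and a fold over 2 on the log2(FPKM + 1) scale, 264 genes were higher (2.13%) and 143 lower (1.16%). Of the 259 genes that rose at least as far as that fold, 114 had a mean WT level under 1 FPKM, so that many of the large increases were of genes scarcely measured in WT. Leaving out 1 library at a time gave 372 to 1064 genes higher and 231 to 571 lower. The count of higher genes was 441 without C6 replicate 1, 372 without C6 replicate 2 and 441 without WT replicate 4. The count of lower genes was 242, 235 and 268 without C6 replicate 1, 2 or 3, 248 without WT replicate 1 and 231 without WT replicate 4.

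**Figure D2:**
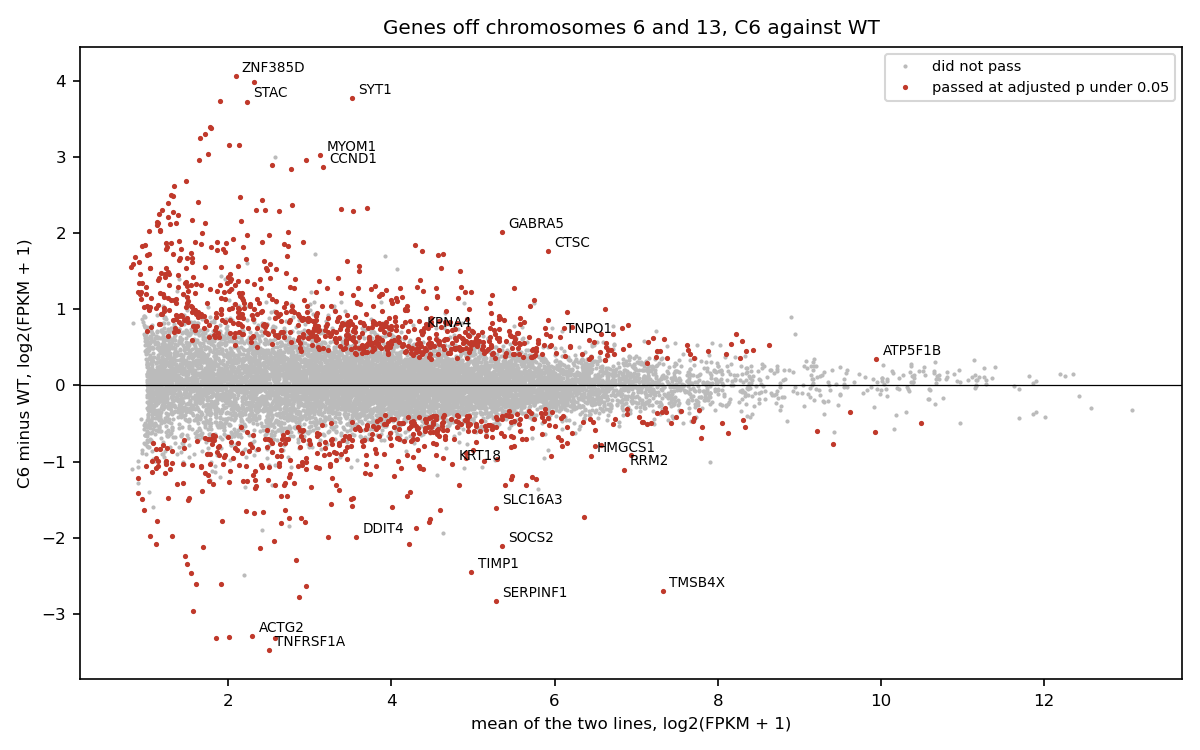
Difference between C6 and WT (vertical axis, log2 scale of FPKM + 1) against the mean of both lines (horizontal axis, same scale) for the genes tested off chromosomes 6 and 13; each point is a gene and red points passed at an adjusted p under 0.05. The 780 genes that rose reach the largest differences at low levels, while TMSB4X, SERPINF1 and TIMP1 fell from high levels.

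Most of the genes with the largest increases were scarcely measured in WT. Genes were ranked if they passed, had at least 5 FPKM in C6 and showed no overlap between the C6 and WT libraries. The 15 of them with the largest differences were ZNF385D, TMEM132E, SYT1, NLGN4X, STAC, TMEM108, PLPPR4, LINC01608, RERG, PTN, MAP2, ESRRB, MYOM1, LMO3 and ARHGAP20. Of these, 12 had a mean WT level under 1 FPKM, and SYT1, MYOM1 and LMO3 were above it. All 15 also passed against EV. ZNF385D, which encodes a zinc finger protein (chromosome 3, 21412218 to 22373321), had 14.8, 18.8, 10.7 and 22.4 FPKM in C6 and 0, 0.0947, 0 and 0 FPKM in WT. It was thus listed at 0 in all WT libraries but replicate 2, and its difference was 4.06 ± 0.21 (adjusted p = 4.29e-06). TMEM132E, a transmembrane protein (chromosome 17, 34579487 to 34639318), had 18.7, 20.6, 16.6 and 19 FPKM in C6 against 0.197, 0.229, 0.459 and 0.13 FPKM in WT, a difference of 3.98 ± 0.15 (adjusted p = 8.59e-07).

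SYT1, NLGN4X and PLPPR4 are genes of the synapse. SYT1 encodes the calcium sensor of synaptic vesicle release. Its FPKM was 39.5, 34.8, 37.4 and 52.1 in C6 and 2.23, 2.98, 1.24 and 1.98 in WT (difference 3.77 ± 0.19, adjusted p = 3.65e-06). NLGN4X, an X-linked neuroligin that joins the postsynaptic membrane to its partner, had 11.6, 14.2, 11.8 and 12.7 FPKM in C6 and at most 0.0526 FPKM in WT (difference 3.73 ± 0.15). PLPPR4, a lipid phosphatase-related protein of excitatory synapses, rose from 0.062 ± 0.00598 to 10.2 ± 2.36 FPKM, and TMEM108, a neuronal transmembrane protein, from 0.0556 ± 0.04 to 10.1 ± 1.5 FPKM (SD, n = 4 each). MAP2, the microtubule-binding protein of dendrites, had 12.9, 12.1, 10.8 and 12.3 FPKM in C6 and 0.518, 0.199, 0.694 and 0.486 FPKM in WT. STAC encodes an adaptor that binds voltage-gated calcium channels, and had 15.9, 16.9, 16.5 and 14.6 FPKM in C6 against 0.428, 0.32, 0.251 and 0.144 FPKM in WT (difference 3.72 ± 0.14). C6 libraries spread little in these genes, which were chosen for having no overlap with the WT libraries.

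The other genes of this group have varied roles. MYOM1, a protein of the sarcomere's M-band, had 16.6, 22.2, 24.5 and 33.4 FPKM in C6 and 2.21, 2.43, 2.1 and 1.42 FPKM in WT. PTN, which encodes the secreted growth factor pleiotrophin, rose from 0.348 ± 0.328 to 11.1 ± 2.78 FPKM. The orphan nuclear receptor ESRRB rose from 0.171 ± 0.124 to 8.66 ± 1.17 FPKM, and LMO3, a LIM-domain cofactor of transcription, from 1.89 ± 1.39 to 19.8 ± 2.35 FPKM. RERG, a RAS-like GTPase, and ARHGAP20, a GTPase-activating protein, rose to 8.71 ± 1.14 and 7.79 ± 2.47 FPKM from 0.0232 ± 0.0311 and 0.109 ± 0.11 FPKM. LINC01608, a long noncoding RNA of chromosome 8, was listed at 0 in all WT and EV libraries and had 7.87, 6.71, 5.94 and 18.8 FPKM in C6. C6 replicate 4 lay well above the other C6 libraries.

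**Figure D3:**
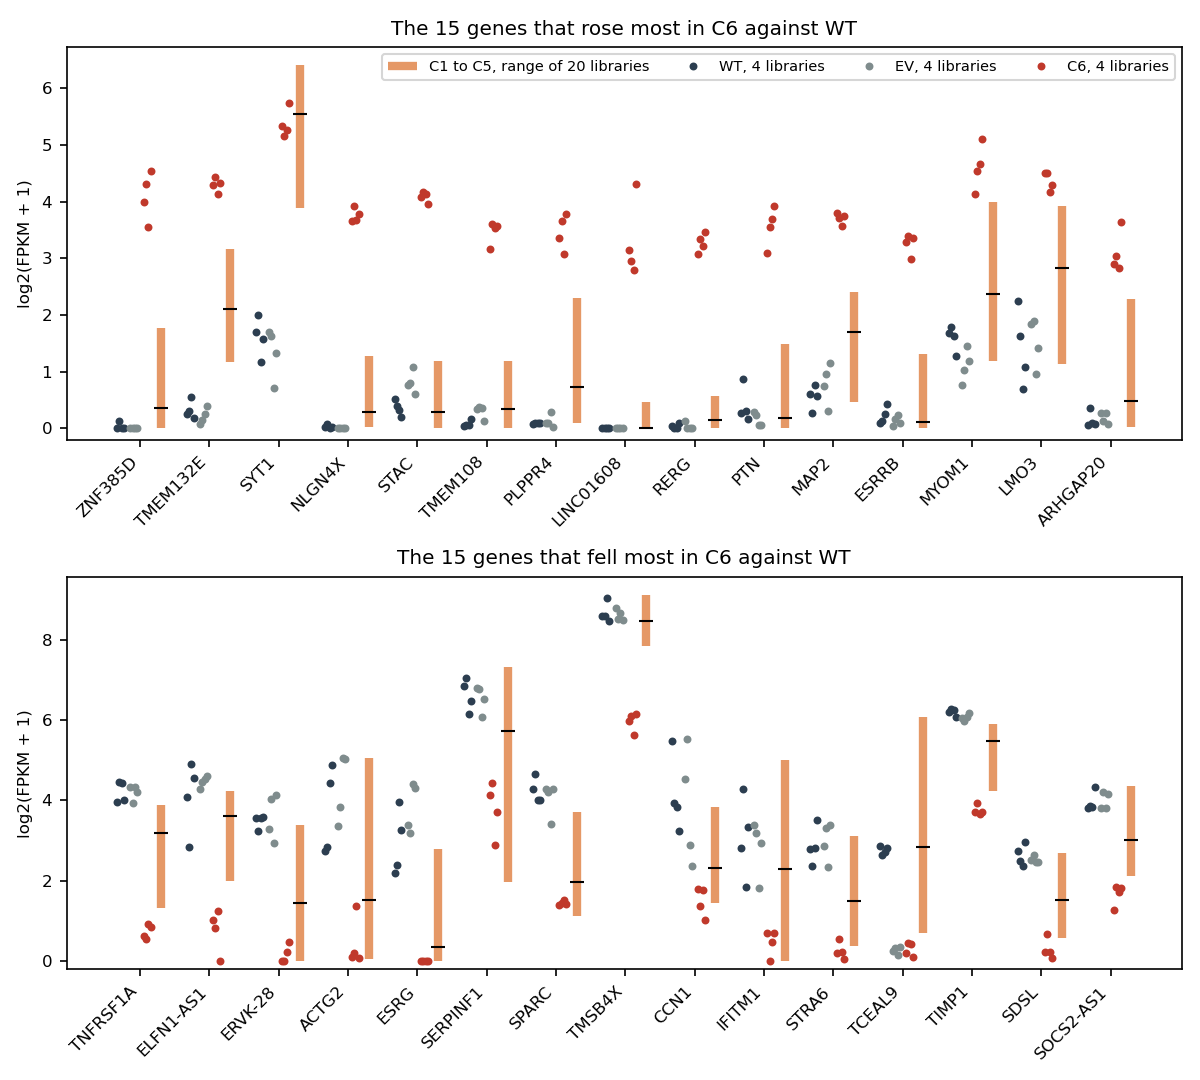
Expression of the 15 genes that rose most (upper panel) and the 15 that fell most (lower panel) in C6 against WT, as log2(FPKM + 1); dots are single libraries of WT, EV and C6 (4 each), orange bars span the 20 libraries of C1 to C5 and black ticks mark their median. The C6 libraries lie clear of WT in every gene because the genes were chosen for that. They lie clear of the orange bar in 14 of the 15 genes above and 6 of the 15 below.

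Genes that fell were ranked in the same way, again only where the C6 and WT libraries did not overlap. Those that fell most were TNFRSF1A, ELFN1-AS1, ERVK-28, ACTG2, ESRG, SERPINF1, SPARC, TMSB4X, CCN1, IFITM1, STRA6, TCEAL9, TIMP1, SDSL and SOCS2-AS1. TNFRSF1A, the main receptor for tumor necrosis factor (chromosome 12, 6328757 to 6342114), had 0.547, 0.464, 0.905 and 0.817 FPKM in C6 and 14.7, 20.9, 20.5 and 15.2 FPKM in WT. Its level in C6 was 3.83% of that in WT (difference -3.48 ± 0.17, adjusted p = 3.29e-06). TMSB4X (chromosome X, 12975110 to 12977227) encodes thymosin beta 4, which binds free actin. It had 61.7, 67.9, 48.1 and 69.5 FPKM in C6 and 381, 383, 519 and 351 FPKM in WT (difference -2.70 ± 0.15, adjusted p = 5.83e-06). Reads of TMSB4X can also match 6 annotated pseudogenes, which makes its level uncertain to that extent.

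Among the secreted proteins, TIMP1, an inhibitor of matrix metalloproteinases, had 12.1, 14.2, 11.6 and 12.1 FPKM in C6 and 72.2, 76.9, 75.6 and 66.6 FPKM in WT. Both sets of libraries were tight, and the difference was -2.45 ± 0.10 (adjusted p = 1.31e-06). SERPINF1, a secreted serpin, had 16.6, 20.6, 6.41 and 12 FPKM in C6 and 113, 130, 70 and 87 FPKM in WT. SPARC, a collagen-binding matrix protein, had 1.66, 1.74, 1.9 and 1.71 FPKM against 18.4, 24.3, 15.1 and 15.1 FPKM. CCN1, a secreted matrix-associated protein, had 2.48, 1.58, 2.4 and 1.05 FPKM in C6 and 43.5, 14.4, 13.2 and 8.42 FPKM in WT. WT replicate 1 was by far the highest library for CCN1.

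ACTG2, the gamma actin of enteric smooth muscle, had 0.0811, 0.153, 1.59 and 0.0541 FPKM in C6 and 5.66, 6.2, 20.8 and 28.6 FPKM in WT; C6 replicate 3 was above the other C6 libraries. IFITM1, an interferon-induced membrane protein, had 0.62, 0, 0.387 and 0.627 FPKM in C6 and 6.08, 18.7, 2.59 and 9.07 FPKM in WT. STRA6, a receptor for retinol uptake, fell from 6.62 ± 2.62 to 0.213 ± 0.179 FPKM and SDSL, a serine dehydratase-like enzyme, from 5.34 ± 1.21 to 0.255 ± 0.234 FPKM. ESRG, a noncoding RNA known from pluripotent cells, was listed at 0 in all 4 C6 libraries and had 3.59, 4.28, 14.6 and 8.6 FPKM in WT. ERVK-28, an endogenous retroviral locus, fell from 10.3 ± 1.27 to 0.142 ± 0.187 FPKM, and the noncoding RNA ELFN1-AS1 from 18.4 ± 9.69 to 0.807 ± 0.594 FPKM.

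SOCS2-AS1 overlaps SOCS2, a suppressor of cytokine receptor signalling (chromosome 12, 93569814 to 93583487), and the sources used here do not say whether the counting used strand, so reads of the pair cannot be told apart; the same holds for ELFN1-AS1 and ELFN1. SOCS2-AS1 had 1.4, 2.62, 2.29 and 2.54 FPKM in C6 and 13.1, 13.5, 13.2 and 19.1 FPKM in WT. SOCS2, chosen after its values were seen, had 17.1, 22.2, 18.8 and 16.9 FPKM against 79.9, 77, 81.5 and 97.3 FPKM (difference -2.11 ± 0.12, adjusted p = 6.69e-06). TCEAL9, an X-linked transcription elongation factor-like gene, stood at 0.155, 0.383, 0.341 and 0.0714 FPKM in C6 and at 6.32, 5.25, 5.61 and 6.01 FPKM in WT. However, EV had 0.123 to 0.279 FPKM of TCEAL9 and thus resembled C6 rather than WT (EV minus WT -2.48, adjusted p = 0.000117). The fall of TCEAL9 was therefore seen against WT and not against EV, where it was too low in both lines to be tested. The other 14 genes that fell most passed against EV as well.

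The values of C6 were next set beside those of the other mutant clones. In the fit of all 32 HAP1 libraries, C6 was higher than the mean of C1 to C5 in 1181 genes off chromosomes 6 and 13 (9.69% of those tested) and lower in 558 (4.58%). These comparisons share the C6 libraries with those above, and the named genes were chosen for their values in C6. Of the 15 genes that rose most, 14 were higher in C6 than in the mean of the other clones, and in the same 14 no library of C1 to C5 reached the lowest C6 library. The share of all genes tested with no such overlap, in either direction, was not counted, so these counts have no background. STAC was at 0 to 1.28 FPKM in C1 to C5 (C6 minus the other clones 3.72 ± 0.14, adjusted p = 1.75e-17), RERG at 0 to 0.491 FPKM (3.05 ± 0.10, adjusted p = 1.04e-18) and NLGN4X at 0.00943 to 1.43 FPKM (3.35 ± 0.13, adjusted p = 1.75e-17). SYT1 was the exception, with 13.8 to 83.8 FPKM in C1 to C5, a median of 45.8 FPKM and a difference of -0.09 ± 0.25 (adjusted p = 0.869).

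Of the 15 genes that fell most, 13 were lower in C6 than in the mean of the other clones, and in 6 no library of C1 to C5 was as low as the highest C6 library: TNFRSF1A, ELFN1-AS1, TMSB4X, TCEAL9, TIMP1 and SOCS2-AS1. TMSB4X was at 228 to 548 FPKM in C1 to C5, the level of WT (C6 minus the other clones -2.51 ± 0.14, adjusted p = 4.25e-14). TNFRSF1A and TIMP1 were at 1.5 to 13.7 and 17.7 to 58.6 FPKM there, between C6 and WT. The difference of ACTG2 from the other clones was -1.63 ± 0.63 (adjusted p = 0.0784) and that of CCN1 -0.93 ± 0.41 (adjusted p = 0.128), neither of which passed.

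**Figure D4:**
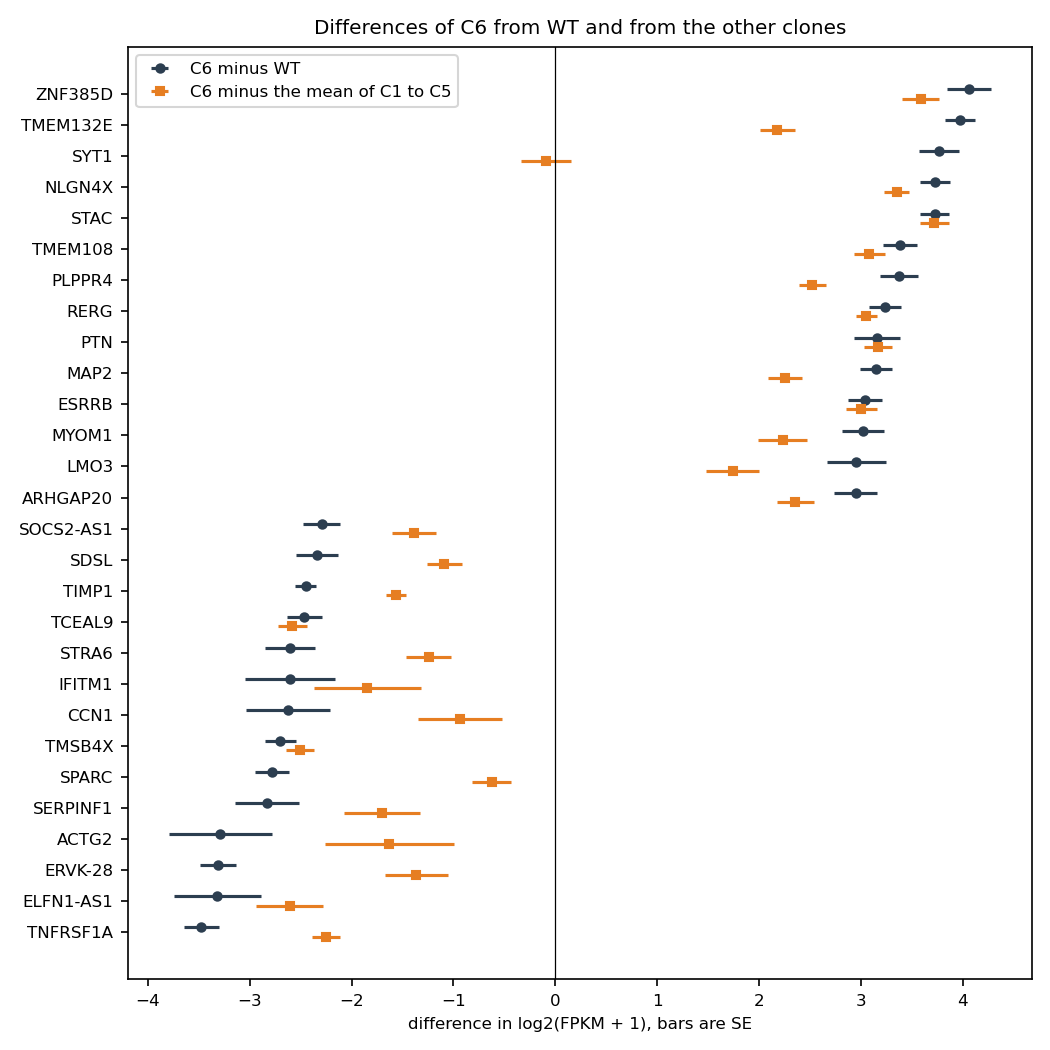
Difference of C6 from WT (dark circles) and from the mean of clones C1 to C5 (orange squares) for the genes that rose or fell most, on the log2 scale of FPKM + 1; bars are standard errors, and LINC01608 and ESRG, at 0 in one line, are left out. SYT1 differs from WT by 3.77 and from the other clones by -0.09, while STAC differs by 3.72 from each.

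The pore and its transport receptors moved little as groups. Of 28 nuclear pore components tested off chromosomes 6 and 13, 1 rose and 2 fell, and their median difference was 0.01, against 0.03 for all genes tested. NUP35, a scaffold nucleoporin, had 34.5, 32.9, 39.3 and 27.3 FPKM in C6 and 26.6, 23.2, 22.1 and 23 FPKM in WT (0.47 ± 0.13, adjusted p = 0.0384). NUP210, a transmembrane nucleoporin, fell by 0.79 ± 0.20 (adjusted p = 0.0286), and NUP107, of the outer ring scaffold, by 0.31 ± 0.09 (adjusted p = 0.0457). When any 1 library was left out NUP107 no longer passed, and NUP35 passed without C6 replicate 4 only. NUP210 did not pass without C6 replicate 1, C6 replicate 3 or WT replicate 1. The partners of NUP58 in the central channel did not pass: NUP54 was at 39.8 ± 3.46 FPKM in C6 and 40.7 ± 3.66 FPKM in WT, and NUP62 at 61.4 ± 6.58 and 67 ± 11.2 FPKM. NUP153, a basket nucleoporin, fell by 0.95 ± 0.13 (adjusted p = 0.00155), but it lies on chromosome 6, where the 10 nearest genes had a median difference of -0.71.

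Of 19 karyopherins off those chromosomes, 2 rose and none fell (median difference 0.04). KPNA4 had 27.4, 23.6, 27.7 and 22.1 FPKM in C6 and 14.1, 12.3, 18.2 and 15.8 FPKM in WT (0.71 ± 0.14, adjusted p = 0.0102). TNPO1, an import receptor for RNA-binding proteins, had 85.7, 79.1, 96.3 and 68.4 FPKM in C6 and 47.9, 42.7, 66 and 55.7 FPKM in WT (0.63 ± 0.15, adjusted p = 0.0248). The genes around them were shifted the same way: the 10 nearest tested genes had a median difference of 0.46 for KPNA4 and 0.28 for TNPO1. Without C6 replicate 1, 2 or 3, or WT replicate 1 or 4, TNPO1 no longer passed. KPNA4 passed with any 1 library left out, but neither gene passed in the test without moderation. KPNB1 was at 247, 226, 284 and 149 FPKM in C6 and 215, 151, 324 and 267 FPKM in WT, so the groups overlapped (-0.06 ± 0.25, adjusted p = 0.909). TNPO2 was at 80.5 ± 6.39 and 64.8 ± 13 FPKM (0.33 ± 0.14, adjusted p = 0.179). Neither KPNA4 (0.21 ± 0.11, adjusted p = 0.203) nor TNPO1 (0.14 ± 0.14, adjusted p = 0.573) differed detectably between C6 and the other clones. On chromosome 13, the karyopherins IPO5 and KPNA3 fell by 0.35 ± 0.08 and 0.47 ± 0.13. With 1 library left out, IPO5 passed only without WT replicate 2 or 3, and KPNA3 only without C6 replicate 3 or WT replicate 2.

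Of 15 neuronal and synaptic genes tested, 7 rose and 1 fell, and the median difference was 0.67. The list had 28 genes, of which 13 were too low to be tested, and a gene near 0 in WT could enter only by being high in C6. Beside SYT1 and MAP2, NEFL, the light neurofilament subunit, had 4.06, 3.22, 4.2 and 2.69 FPKM in C6 and at most 0.0855 FPKM in WT. NLGN1, a neuroligin, rose from 2.58 ± 0.562 to 5.71 ± 0.452 FPKM (0.92 ± 0.16, adjusted p = 0.00565). The further members that rose, named here after their values were seen, were the adhesion molecule NCAM1, the synaptotagmin SYT11 and the vesicle protein SYP. TUBB3, a tubulin of neurons, went the other way, with 48.1, 51.3, 44.9 and 30.8 FPKM in C6 and 86.1, 59.8, 73.3 and 122 FPKM in WT (-0.92 ± 0.22, adjusted p = 0.0253). Against the other clones, 4 members were higher and none lower, and the median over those tested there was 0.14. With 1 library left out, SYT11 passed only without C6 replicate 3 or WT replicate 2, SYP only without C6 replicate 4 or WT replicate 3, and TUBB3 only without C6 replicate 2 or WT replicate 2 or 3. Clustered protocadherins numbered 23, of which 5 were tested, with 3 negative differences and a median of -0.08. PCDHB3 and PCDHB5 rose, PCDHB5 not without C6 replicate 1, 2 or 3 or WT replicate 1. PCDHB3, at 1.92 ± 0.169 FPKM in C6 and 0.436 ± 0.177 FPKM in WT, was high enough to be tested only through C6. The 9 pluripotency-associated genes tested had 7 positive differences and a median of 0.15, and ESRG, which fell, alone passed.

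**Figure D5:**
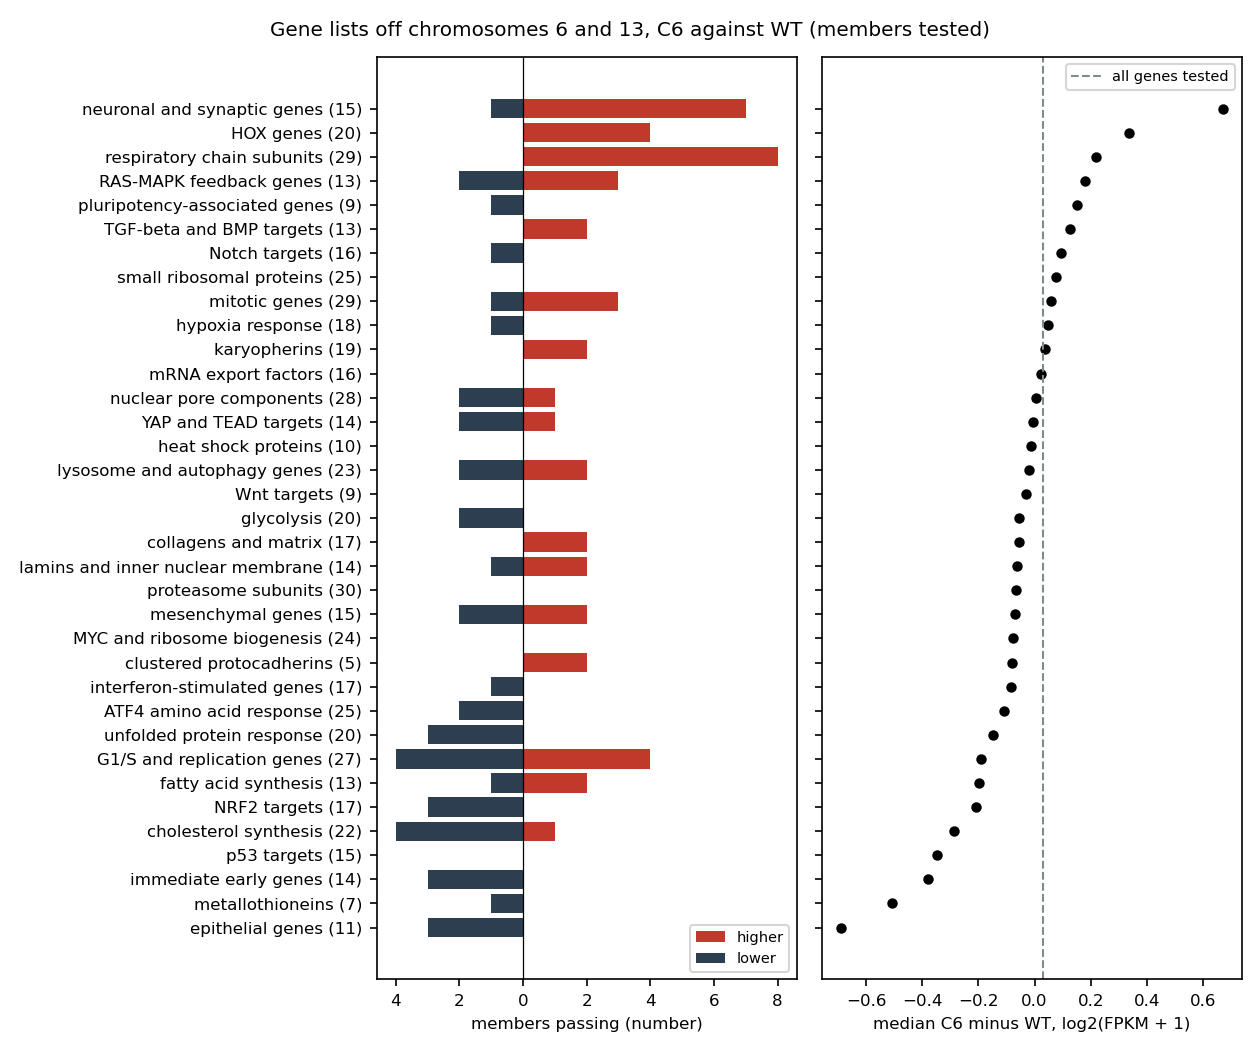
Gene lists with at least 5 members tested off chromosomes 6 and 13, with the number tested in brackets: members that rose (red, to the right) or fell (dark, to the left) in C6 against WT on the left, and the median difference on the log2 scale of FPKM + 1 on the right, where the dashed line is the median of all 12376 genes (0.03). The neuronal and synaptic genes have the highest median (0.67) and the epithelial genes the lowest (-0.69). Medians cover only the members tested, and a neuronal gene near 0 in WT could be among them only by being high in C6.

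Of 24 epithelial genes, 13 were too low to be tested. All 11 tested had negative differences against WT (median -0.69), of which 3 fell and 8 did not pass. Against the other clones 3 members were lower, namely KRT8, KRT18 and SPINT2, and none was higher, with a median of -0.06. KRT8 had 1.98, 1.17, 1.94 and 0.854 FPKM in C6 and 10.6, 12.6, 6.01 and 10.8 FPKM in WT (-2.13 ± 0.24, adjusted p = 0.000619). Its keratin partner KRT18 fell from 37.5 ± 6.7 to 17.7 ± 1.52 FPKM (-1.03 ± 0.14, adjusted p = 0.00152). KRT8 and KRT18 overlap each other and have 51 and 67 named pseudogenes, so their reads may be split between loci. SPINT2, a membrane-bound protease inhibitor, had 17.3, 24, 19.8 and 41.3 FPKM in C6 and 70.4, 98.2, 37.3 and 55.2 FPKM in WT, so that the highest C6 library lay above the lowest WT library, and it did not pass without C6 replicate 1, 2 or 3 or WT replicate 1 or 4. Of 15 mesenchymal genes, PDGFRA and ZEB2 rose and SPARC and VIM fell (median -0.07), VIM with 1 library left out only without C6 replicate 3 or WT replicate 2. PDGFRA, a growth factor receptor, had 19.5, 22.6, 15.4 and 21.6 FPKM in C6 and 6.89, 8.04, 3.85 and 5.66 FPKM in WT, but only 0.505 to 0.717 FPKM in EV, so that both controls differed (EV minus WT -2.12, adjusted p = 0.00366). Among 17 collagen and matrix genes, the paired type IV collagen genes COL4A6 (0.93 ± 0.19) and COL4A5 (0.51 ± 0.13) of chromosome X rose. COL4A6 did not pass without C6 replicate 2, and of the 8 fits that leave out 1 library COL4A5 passed only in those without WT replicate 1 or 2.

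Cell cycle genes changed in both directions. Of 27 genes of the G1/S transition and DNA replication, 4 rose and 4 fell, and the median difference was -0.19. Of the D-type cyclins, which bind CDK4 and CDK6 in early G1, CCND1 and CCND2 rose. CCND1 had 22.1, 23.6, 22.7 and 22.1 FPKM in C6 and 1.97, 2.24, 3.9 and 1.35 FPKM in WT (2.86 ± 0.20, adjusted p = 3.02e-05). CCND2 had 12, 12.7, 8.81 and 16.4 FPKM in C6 and 1.76, 2.93, 1.9 and 0.681 FPKM in WT (2.29 ± 0.26, adjusted p = 0.000642). CCND1 was higher in C6 than in C1 to C5 too (1.32 ± 0.13, adjusted p = 1.72e-08), where it spanned 4.45 to 22.9 FPKM. CCND3, the D-type cyclin gene on chromosome 6, fell by 0.36 ± 0.09 (adjusted p = 0.0318) and was named after its values were seen.

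The E-type cyclins, which act later in G1, fell. CCNE2 had 2.98, 3.55, 3.7 and 4.1 FPKM in C6 and 14.8, 10.7, 27.9 and 18.9 FPKM in WT (-1.98 ± 0.25, adjusted p = 0.000937), and CCNE1 10 ± 2.14 and 19.5 ± 3.96 FPKM (-0.90 ± 0.18, adjusted p = 0.0117). The CDK inhibitor genes CDKN2C (0.57 ± 0.09) and CDKN1B (0.62 ± 0.16) rose, and RRM2, a subunit of ribonucleotide reductase, and the replication factor CDC45 fell by 1.10 ± 0.26 and 0.37 ± 0.10. CCNE1, CDKN1B, RRM2 and CDC45 were named after their values were seen. The count of lower genes in this list was 2 without C6 replicate 2 or WT replicate 1, 3 or 4, and 0 in the test without moderation. Leaving out 1 library, CDKN1B and CDC45 passed only without C6 replicate 3 or WT replicate 2. Of 29 mitotic genes, CENPE, CENPF and ECT2 rose by 0.41 to 0.56 and CDK1 fell by 0.51 ± 0.11 (median 0.06). CENPE alone of the 3 passed without C6 replicate 1, 2 or 3 or WT replicate 4, and CDK1 did not pass without C6 replicate 1 or WT replicate 4. No p53 target off chromosomes 6 and 13 passed among 15 in limma (median -0.35), though 4 were lower at an unadjusted p under 0.05. Of these targets, 1 passed as lower without C6 replicate 1, 2 without WT replicate 2 and 2 with a replicate block. Against EV, 4 fell and none rose (median -0.46). CDKN1A, the p53 target on chromosome 6, had 2.68, 1.86, 2.56 and 1.93 FPKM in C6 and 72.4, 8.52, 10.3 and 13.3 FPKM in WT, WT replicate 1 being far above the others, and its 10 nearest genes had a median difference of -0.56. Its fall did not pass without C6 replicate 2.

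Of 29 respiratory chain subunits, 8 rose and none fell, with 25 positive differences and a median of 0.22. Over all 12376 genes tested, 6.3% rose and 6681 differences were positive. NDUFB8, a complex I subunit, had 230, 209, 187 and 171 FPKM in C6 and 146, 126, 121 and 127 FPKM in WT (0.61 ± 0.11, adjusted p = 0.00771). NDUFA1 and NDUFB3, also of complex I, rose by 0.41 ± 0.09 and 0.40 ± 0.09, and ATP5F1B, the catalytic subunit of ATP synthase, by 0.35 ± 0.09. NDUFB3 did not pass against EV (0.17 ± 0.09, adjusted p = 0.227 in limma). Against the other clones 12 of these subunits were higher and none lower. The count against WT was 1 without C6 replicate 2, 2 without C6 replicate 1, C6 replicate 3 or WT replicate 4, 3 without WT replicate 3, 4 without C6 replicate 4 or WT replicate 1 and 10 without WT replicate 2, so it depends on single libraries.

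Of 20 glycolysis genes 2 fell. SLC16A3, the exporter of lactate, had 18.2, 22.5, 17.3 and 27 FPKM in C6 and 81.4, 64, 48.7 and 75.1 FPKM in WT (-1.61 ± 0.19, adjusted p = 0.000635), and the enolase gene ENO2 fell by 0.76 ± 0.13. In the hypoxia list PFKFB3, a regulator of glycolysis, fell by 0.39 ± 0.10 and the other 17 genes did not pass (median 0.05). When 1 library was left out, PFKFB3 passed only without WT replicate 2. Of 22 cholesterol synthesis genes, 20 had negative differences, 4 fell and 1 rose (median -0.29). HMGCS1, the synthase ahead of the rate-limiting step, had 72.5, 58.8, 61.5 and 55.5 FPKM in C6 and 119, 127, 108 and 121 FPKM in WT (-0.93 ± 0.11, adjusted p = 0.000619). IDI1, MVD and NSDHL fell by 0.44 to 0.71, whereas PMVK rose by 0.69 ± 0.14. The count that fell was 1 without C6 replicate 2 or WT replicate 4, 2 without C6 replicate 3 or WT replicate 1, 6 without WT replicate 3, and 1 in the fit of all 32 libraries. HMGCS1 passed with any 1 library left out, and PMVK did not pass without C6 replicate 2. Against the other clones, 1 member was higher and none lower. Of 13 genes of fatty acid synthesis and activation, ACSL1 and ELOVL6 rose and ACSL3 fell (median -0.20). Neither ACSL1 nor ELOVL6 passed without C6 replicate 1, C6 replicate 2 or WT replicate 1, in the test without moderation or with a replicate block. ACSL1 also failed to pass without C6 replicate 4 or WT replicate 4, and ELOVL6 without C6 replicate 3 or WT replicate 3. Of this list, 3 members fell without WT replicate 3.

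Among 17 NRF2 targets none rose (median -0.21), and NQO1 and HMOX1, enzymes of the oxidative stress response, were among those that fell, HMOX1 not without C6 replicate 1. NQO1 had 34.8, 34.2, 26.3 and 18.6 FPKM in C6 and 89.3, 58.9, 69.2 and 46.2 FPKM in WT (-1.18 ± 0.23, adjusted p = 0.0104), and C1 to C5 had 9.7 to 52 FPKM, with no detectable difference from C6 (-0.05 ± 0.24, adjusted p = 0.93). The chaperone genes SDF2L1, PDIA6 and CALR fell by 0.34 to 0.68 among 20 genes of the unfolded protein response (median -0.15). SDF2L1 passed with any 1 library left out, whereas PDIA6 and CALR passed without WT replicate 2 only. Among 25 genes of the ATF4 amino acid response, DDIT4 and ATF5 fell (median -0.11); DDIT4, an inhibitor of mTORC1, had 4.83, 3.76, 1.72 and 8.1 FPKM in C6 and 20.8, 51.9, 7.67 and 16 FPKM in WT, which overlap. Without C6 replicate 1, 2 or 3 or WT replicate 1 or 4, neither DDIT4 nor ATF5 passed, and ATF5 did not pass without C6 replicate 4 or WT replicate 3 either. One metallothionein of 7, MT1M, fell by 1.17 ± 0.22 (median -0.51), and 2 passed without WT replicate 2.

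Among signalling and patterning genes, 4 of 20 HOX genes rose and none fell, with 16 positive differences and a median of 0.34. All 4 lie in the HOXA cluster of chromosome 7. HOXA13 had 40.2, 48.4, 36.9 and 64.6 FPKM in C6 and 16.7, 22.2, 20 and 18.5 FPKM in WT (1.23 ± 0.17, adjusted p = 0.0018), HOXA11 rose by 0.98 ± 0.13, HOXA10 by 0.85 ± 0.23 and HOXA5 by 0.63 ± 0.18. Without any 1 of the C6 libraries, or without WT replicate 1, 2 HOX genes passed, and 7 passed without WT replicate 2. HOXA10 overlapped between C6 and WT. With 1 library left out HOXA10 passed only without WT replicate 2, and HOXA5 only without WT replicate 4. HOXA5 did not pass against EV (0.32 ± 0.14, adjusted p = 0.134 in limma). Set against C1 to C5, 3 HOX genes were higher in C6 and 2 lower, with a median of 0.065. BMP7, a secreted growth factor, had 16.1, 19.3, 16.9 and 15.8 FPKM in C6 and 1.88, 2.14, 1.28 and 0.922 FPKM in WT (2.84 ± 0.18, adjusted p = 1.33e-05). EV also had more BMP7 than WT (8.15 to 13.5 FPKM), and against EV the difference was 0.59 (adjusted p = 0.0266). The BMP antagonist NOG rose by 1.11 ± 0.28 and did not pass without C6 replicate 2, 3 or 4 or WT replicate 1 or 4. These were the genes that passed among 13 TGF-beta and BMP targets (median 0.13).

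In the RAS-MAPK list, CCND1, the ETS factor ETV1 and SPRED2 rose and EPHA2 and EGR1 fell among 13 (median 0.18). Leaving out 1 library, SPRED2 passed only without WT replicate 2 or 3, and EPHA2 did not pass without C6 replicate 1, 2 or 3 or WT replicate 1. ETV1 had 15.5, 14.7, 15 and 12 FPKM in C6 and 2.21, 1.03, 3.34 and 1.68 FPKM in WT (2.37 ± 0.22, adjusted p = 0.000181). Of 14 immediate early genes, KLF2, KLF6 and EGR1 fell (median -0.38); EGR1 had 9.79, 34.4, 13.3 and 3.39 FPKM in WT and 2.06 to 3.82 FPKM in C6, which overlap, and passed only without WT replicate 2 or 4 when 1 library was left out. KLF2 then passed only without C6 replicate 4 or WT replicate 2, and KLF6 only without WT replicate 2 or 3. Among 14 YAP and TEAD targets, CCN1 and AMOTL2 fell and FJX1 rose (median -0.01). AMOTL2 did not pass without C6 replicate 1, 3 or 4 or WT replicate 3 or 4, and 3 of these targets rose without WT replicate 2. LFNG fell among 16 Notch targets (median 0.09) but, leaving out 1 library, passed only without C6 replicate 4 or WT replicate 1, and IFITM1 fell among 17 interferon-stimulated genes (median -0.09), where 2 fell without WT replicate 1. Of 14 lamin and inner nuclear membrane genes, LBR (0.55 ± 0.13), a receptor that anchors lamin B, and TOR1AIP2 rose and SYNE2 fell. No member of that list rose without C6 replicate 1, 2 or 3 or WT replicate 3, and 1 rose without WT replicate 4. The number that fell was 2 without C6 replicate 4 or WT replicate 2 and 0 without WT replicate 4. Of 23 lysosome and autophagy genes, UVRAG and CTSD rose and ATP6V1H and CTSZ fell. With 1 library left out, none of the lysosome and autophagy genes rose except 1 without C6 replicate 3 and 2 without WT replicate 2, and none fell except 1 without WT replicate 3 and 2 without WT replicate 2.

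No member passed in limma among 10 heat shock proteins, 24 genes of MYC and ribosome biogenesis, 25 small ribosomal proteins, 30 proteasome subunits, 16 mRNA export factors, 9 Wnt targets and 2 cancer-testis genes off chromosomes 6 and 13, with medians between -0.08 and 0.08. At an unadjusted p under 0.05, none of the heat shock, proteasome and Wnt genes differed, 3 small ribosomal proteins and 1 gene of ribosome biogenesis were higher, 3 mRNA export factors were higher and 1 lower, and 1 cancer-testis gene was higher and 1 lower. The test without moderation gave 1 small ribosomal protein and no other gene of these lists. A gene that misses the threshold is not shown to be equal in both lines.

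Against EV in place of WT, 1398 genes off chromosomes 6 and 13 rose (11.3% of those tested) and 875 fell (7.09%). The members that rose went from 4 to 8 in the HOX genes, from 3 to 7 in the mitotic genes, from 2 to 4 in the karyopherins and in the lamins and inner nuclear membrane genes, from 1 to 3 in the YAP and TEAD targets, and from 0 to 3 and 0 to 2 in the pluripotency-associated genes and the mRNA export factors, with 2 in place of 0 in the ATF4 list too. The members that fell went from 1 to 5 in the metallothioneins (median -1.01 against EV), from 0 to 4 in the p53 targets, from 4 to 7 in the G1/S list, from 3 to 5 in the NRF2 targets and the immediate early genes, from 1 to 4 in the lamin list, and from 1 to 3 in the hypoxia, interferon and fatty acid lists. In the other lists each count moved by at most 1, with 8 neuronal genes and 9 respiratory chain subunits that rose and 3 epithelial genes that fell. These counts share the C6 libraries with those against WT. Genes named above that passed against WT but not against EV included NUP35, NUP107, IDI1, PDIA6, NDUFB3, VIM, HOXA5, LFNG and KLF6. Their adjusted p against EV ran from 0.0562 (PDIA6) to 0.256 (VIM) in limma. In the test without moderation against WT, 29 of the 89 list members that passed in limma still passed.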

How the data were processed

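Bulk RNA sequencing measured 32 HAP1 libraries in the lines named in the report and 15 HCT116 libraries not used here. Per the labels and the study's methods, the authors checked reads with FastQC, trimmed adaptors, aligned to GRCh38 with STAR and quantified genes with RSEM; versions are not given in the sources used here. The deposited values are FPKM, made by the authors without scaling between libraries. Fragment counts were not used here, so the depth behind a value is unknown, and relative depth was read from genes under 0.15 FPKM. All columns matched a sample, and 44 chromosome Y copies of pseudoautosomal genes were dropped.

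Genes with a mean of at least 1 FPKM were tested on log2(FPKM + 1) with limma 3.58.1 in R 4.3.3 (lmFit, eBayes with trend, Benjamini-Hochberg), C6 against WT or EV in fits of 8 libraries and against C1 to C5 in a fit of 32. The study used unmoderated two-sample tests, run here as an alternative. Positions came from GENCODE release 44, which held 98.1% of the genes. Named were NUP58 and transport genes of the study, the 15 genes each way with the largest difference among those that passed without overlap, with a symbol and at least 5 FPKM in the higher line, off chromosomes 6, 13 and Y, and, per list, up to 4 members that passed and 2 abundant ones that did not, of which only some are printed; others are marked. The members and the 39 lists were chosen with earlier results of these data known. No pairing was used, since the study compared clones with WT by independent tests. Same-numbered libraries of C6 and WT did not vary together in every pair, which cannot decide whether they were handled together. A member of the NRF2 list is not reported here by name. The tests were tried on simulated data. Alternatives changed the pseudocount, filter, scaling, test, block, control and libraries. Tables and figures used Python 3.11.15, pandas 2.3.3, numpy 2.4.6 and matplotlib 3.10.9.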

Additional observations from a re-analysis of the deposited data

Results flagged for a closer look

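Single libraries stood apart in 13 of 254 groups of 4 libraries, by the gap to the nearest library divided by the group's range (Dixon's ratio at its 95% limit). Chance alone would mark about 1 group in 20. Within WT the ratio was 1 for ZNF385D (replicate 2, 0.0947 FPKM, the others at 0), 0.932 for TMEM108 (replicate 4, highest), 0.838 for ARHGAP20 (replicate 2, highest), 0.878 for ERVK-28 (replicate 2, lowest), 0.921 for SOCS2-AS1 (replicate 4, highest), 0.896 for CADM1 (replicate 4, highest) and 0.865 for JUP (replicate 3, lowest). Within C6 it was 0.9 for ACTG2, 0.866 for SDF2L1 and 0.914 for MT1M, all in replicate 3, 0.959 for NDUFB3 and 0.877 for LBR, both lowest in replicate 4, and 0.847 for TGFB1I1 in replicate 1.

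C6 differed from the mean of C1 to C5 at an adjusted p under 0.05 in limma for 25 of 35 genes compared, which were chosen for their values in C6. On the log2 scale it was higher by 3.72 for STAC, 3.59 for ZNF385D, 3.35 for NLGN4X, 3.17 for PTN, 3.08 for TMEM108, 3.05 for RERG, 3.00 for ESRRB, 2.52 for PLPPR4, 2.36 for ARHGAP20, 2.26 for MAP2, 2.23 for MYOM1, 2.18 for TMEM132E and 1.74 for LMO3. The difference was -2.61 for ELFN1-AS1, -2.58 for TCEAL9, -2.51 for TMSB4X, -2.25 for TNFRSF1A, -1.85 for IFITM1, -1.70 for SERPINF1, -1.57 for TIMP1, -1.39 for SOCS2-AS1, -1.37 for ERVK-28, -1.24 for STRA6, -1.09 for SDSL and -0.63 for SPARC.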

How the results depend on the processing

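Off chromosomes 6 and 13, the counts at an adjusted p under 0.05 were 340 higher and 179 lower in the test without moderation, 1398 and 875 against EV, and 1659 and 1117 against WT and EV together. Leaving out 1 library at a time gave 372 to 1064 higher and 231 to 571 lower, and 233 to 349 and 118 to 163 where the call was an unadjusted p below 0.01 with a fold above 2. The latter counts were 106 and 84 among genes of at least 5 FPKM. With a replicate block the counts against WT were 650 and 372. Same-numbered libraries of C6 and WT had correlations of 0.0795, 0.183, 0.418 and -0.365. Values of mixed sign cannot decide whether libraries of one number were handled together, which was not tested. Against the other clones the block gave 1798 higher and 876 lower, in place of 1181 and 558. TPM scaling gave 893 and 446, and median-ratio scaling 743 and 514. Across the alternatives 59.1% to 68.9% of the genes that passed were higher, against 63.4%. No result reversed. Of 123 named genes that passed, 5 to 43 lost their call when 1 library was left out (fewest without WT replicate 2, most without C6 replicate 2), 59 without moderation and 31 without a filter. Among the 30 genes that rose or fell most, ACTG2, ESRG, CCN1 and IFITM1 lost theirs without moderation and TCEAL9 with EV among the controls, out of 560 results. The causes were not tested. Depth per gene is unknown from FPKM, so low values carry no interval.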

Other observations

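Further genes with large differences in C6 lay outside the gene lists and were chosen after their values were seen. They are picks among the 780 genes that rose and the 451 that fell, and give no share for any class of genes. GABRA5, a subunit of the GABA-A receptor, had 72.3, 85.9, 85.1 and 78.5 FPKM in C6 and 25.9, 19.6, 17.2 and 15.5 FPKM in WT (difference 2.01 ± 0.15, adjusted p = 4.47e-05 in limma), and C1 to C5 had 26.6 to 69.8 FPKM. VSNL1, a neuronal calcium sensor, rose from 1.12 ± 0.393 to 14.9 ± 3.6 FPKM, NTRK3, a neurotrophin receptor, from 0.0796 ± 0.079 to 6.27 ± 2.67 FPKM, and SLITRK3, a synaptic adhesion protein, from 1.37 ± 0.0843 to 8.34 ± 1.38 FPKM (SD, n = 4 each). The adhesion genes CADM1 and CADM2, the guidance receptor ROBO2 and the presynaptic scaffold RIMS2 rose by 1.55 to 2.13. CADM1 did not differ detectably between C6 and the other clones (0.34 ± 0.22, adjusted p = 0.334), whereas CADM2 and ROBO2 were higher in C6 by 1.71 ± 0.22 and 1.69 ± 0.16. CTSC, a lysosomal protease, had 111, 115, 118 and 97 FPKM in C6 and 40.1, 30.5, 27 and 30.6 FPKM in WT (1.76 ± 0.13, adjusted p = 3.68e-05).

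Among genes that fell, S100A6, a calcium-binding protein, went from 37.9 ± 16.1 to 7.8 ± 1.83 FPKM. JUP (plakoglobin) fell by 1.40 ± 0.21, CDH3 (P-cadherin) by 1.67 ± 0.37, TGFB1I1 (a focal adhesion adaptor) by 1.28 ± 0.18 and CSRP1 (a LIM protein of actin bundles) by 1.30 ± 0.28. CDH3 (-0.59 ± 0.30, adjusted p = 0.202) and CSRP1 (-0.51 ± 0.20, adjusted p = 0.0841) did not pass against the other clones, and against WT CDH3 did not pass without C6 replicate 1, C6 replicate 3 or WT replicate 1, nor CSRP1 without WT replicate 4.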
